A study of Mus musculus and other sequences with 2 samples.

Results

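Mesenchymal and endothelial miRNAs were examined in spent media of murine blastocysts by taking, from the array of TaqMan RT-qPCR assays, every mouse assay named for miR-126, miR-143, miR-145, miR-199a, miR-199b or miR-214 (mmu-miR-126 and so on in the deposited table), with or without an arm and leaving out names that end in #, the mark of the minor arm of a hairpin. This gave 9 of the 750 miRNA assays, of which card A held 6 and card B held 3, under 7 different names, since miR-143 and miR-214 each had an assay on both cards. The conditioned sample was 1 microdroplet of 8 μL in which 25 embryos of the CD1 strain, from superovulated females given in the labels as 3 wk of age, were cultured from 99 to 116 h post-hCG in KSOM without BSA and with 0.1% polyvinylacetate, as the labels spell it, at 37°C under 5% O2 and 5% CO2. The labels call these embryos blastocysts, and by the methods of the study they were placed in the droplet as compacted or cavitating morulae. The blank sample was 1 microdroplet of the same media kept for 17 h with no embryos. From each, 6 μL was lysed without RNA extraction, reverse transcribed, pre-amplified for 12 cycles and amplified for 40 cycles. With 1 droplet of each medium, no test between them was possible, and since the 25 embryos were pooled, fewer embryos releasing a sequence and less RNA from each embryo cannot be told apart.

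A mature miRNA guides a silencing complex to mRNAs that pair with its seed, the bases near its 5′ end, and each hairpin can give rise to a mature sequence from either arm. miR-143 and miR-145 are transcribed together and are best known from smooth muscle and fibroblasts, miR-199a and miR-214 are transcribed together in mesenchymal progenitors and developing skeleton, and miR-126 is the characteristic miRNA of endothelial cells, where it takes part in vascular integrity. A blastocyst has neither mesenchyme nor endothelium, so these names stand for the tissues in which the sequences are abundant later and not for cells of the embryos cultured here.

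The mature sequences that the assay names point to are shown because the results below separate arms of one hairpin and assays of one name. They are RefSeq sequences of build GRCm38.p6, written 5′ to 3′, with the seed, bases 2 to 8, in capitals. Of the 9 assays, 5 were matched to such a sequence, 1 by its full name and 4 by the arm that the older name stands for. The sequences of the assays themselves were not used here.
miR-126a-3p: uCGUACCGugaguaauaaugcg
miR-199a-5p: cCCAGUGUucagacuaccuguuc
miR-199a-3p: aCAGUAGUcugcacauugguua
miR-214-3p: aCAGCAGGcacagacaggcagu
miR-214-5p: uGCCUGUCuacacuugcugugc
miR-761: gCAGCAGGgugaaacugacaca
On this build, miR-126a-3p lies at chr2:26591402-26591423 on the plus strand, within the span of the protein-coding gene Egfl7. miR-214-3p lies at chr1:162223438-162223459 on the plus strand, and miR-199a-5p and miR-199a-3p of Mir199a-2 lie at chr1:162217844-162217866 and chr1:162217883-162217904, and the spans of the long non-coding RNA Dnm3os and of Dnm3 hold both genes. A second copy, Mir199a-1, carries the same mature sequences at chr9:21496537-21496559 and chr9:21496498-21496519 on the minus strand, within the span of Dnm2. The miR-199b-3p sequence of Mir199b, within the span of Dnm1, is identical to miR-199a-3p over all 22 bases, so that these loci cannot be told apart by the mature 3p sequence. Mir143 and Mir145a both lie within the span of the long non-coding RNA Carmn. Whether any of these miRNAs is exonic or intronic was not read from the annotation used here.

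The value of each well was its Ct, the cycle at which fluorescence crossed the threshold, on an inverted log2 scale where a lower Ct stands for more template. A sequence was called detected at a Ct below 35, and a well without a Ct within the run is given as undetermined. The study also required a minimum strength of fluorescence, which was not applied here, so the rule used here is the wider one. A call here, in either medium, need not be a call by the rule of the study, and the shares below are not its shares. In conditioned media 5 of the 9 assays were detected, beside 280 of all 750 miRNA assays, or 37.3%. In blank media 3 of the 9 were detected, beside 29.1% of all assays. Detection in conditioned media only was found for 3 of the 9, the assays of miR-126 and miR-143 on card A and that of miR-214 on card B, beside a background of 13.9%. Detection in both was found for 2 of the 9, miR-143 on card B and miR-145, beside 23.5%. Only miR-199a was detected in blank media alone, 1 of the 9 beside 5.6% of all assays, and 3 of the 9 were detected in neither, beside 57.1%. Each member stood in 1 well per medium and the 9 assays share names and hairpins, so that these shares were not tested against the background.

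**Figure D1:**
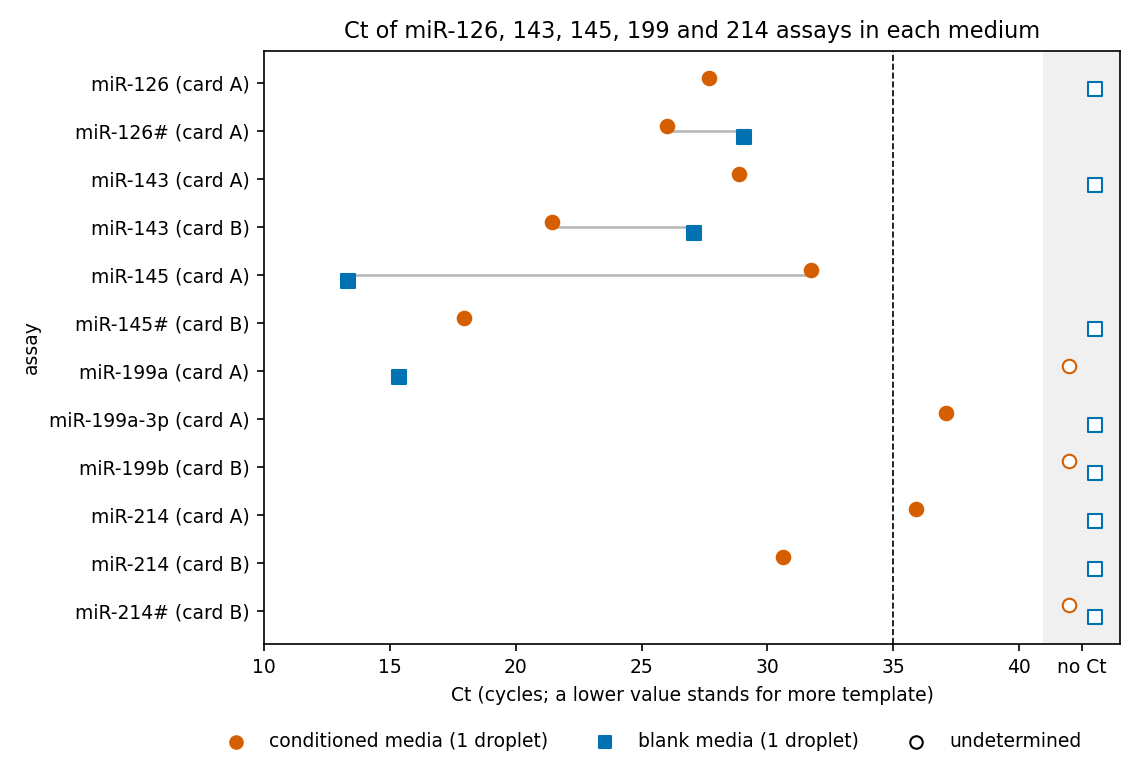
Ct of the 9 assays and of the 3 minor-arm assays (#) of the same hairpins, with Ct in cycles on the horizontal axis, circles for conditioned media and squares for blank media (1 well each), a dashed line at the limit of 35, and open symbols in the grey strip for undetermined wells. A grey line joins both wells where both had a Ct. The 3 patterns to see are orange points alone between 27.7 and 30.6 for miR-126, miR-143 on card A and miR-214 on card B, the early blank points of miR-145 and miR-199a at 13.3 and 15.4, and miR-143 on card B with a Ct in both media.

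The endothelial sequence, mmu-miR-126, crossed the threshold at a Ct of 27.7 in conditioned media and gave no Ct in the blank droplet. Among the 280 sequences detected in conditioned media it ranked 182 by Ct, where rank 1 is the lowest Ct, and the median Ct of those sequences was 25.5. The minor arm of the same hairpin, miR-126#, was on the same card, with 26.0 as the conditioned and 29.1 as the blank Ct. The conditioned minus the blank Ct of this arm was -3.05 cycles. Between the 4 wells of U6, a small nuclear RNA spotted on each card, the SD on card A was 0.68 in the conditioned and 3.22 in the blank sample, the latter with 1 well at 20.2 beside 3 from 26.3 to 27.1. The difference for miR-126# was smaller than 3.22 and larger than the SD of 0.49 of those 3 wells alone, a choice made after seeing the data. U6 on this card moved by -4.08 cycles itself, and relative to that mean the difference for miR-126# was 1.03 cycles. The blank droplet thus gave a Ct with the assay of the minor arm of miR-126 and none with that of the other arm.

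mmu-miR-143, which acts in the contractile differentiation of smooth muscle, was measured by an assay on each card. The assay of card A gave a Ct of 28.9 with conditioned media and none with blank media. The assay of card B gave 21.5 with conditioned and 27.1 with blank media. The assays therefore placed the same name in different classes, and only that of card A met the criterion of detection in conditioned media alone. On card B the conditioned minus the blank Ct was -5.63 cycles, past the limit of 5 cycles used here. Differences past it in this direction were found for 19 of the 176 assays detected in both droplets, or 10.8%, and the difference of miR-143 ranked 15 of those 176 from the most negative. On card B, U6 was itself earlier in conditioned media, with wells between 18.99 and 20.8 against 26.8 and 27.3 in blank media, and a mean difference of -7.07 cycles. Taken relative to the mean of U6, miR-143 on card B was 1.45 cycles later in conditioned media than in blank media, so the direction of its difference depended on this reference. Whether U6 can serve as a reference between a droplet with embryos and one without was not tested. Centred on the median difference of the 82 sequences of card B detected in both media, the difference of miR-143 stayed at -5.88 cycles.

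mmu-miR-145 is the partner of miR-143 in the same primary transcript. Its Ct was 31.7 with conditioned and 13.3 with blank media, so that the conditioned well came later by 18.4 cycles, a direction opposite to that of miR-143 on card B without normalization and the same as it relative to the mean of U6, where miR-145 was later by 22.5 cycles. More than 5 cycles later in conditioned media were 20 of the 176 sequences detected in both media, or 11.4%, with differences from 5.55 to 18.7 cycles, and that of miR-145 was the second largest. The minor arm, miR-145#, had 17.9 in the conditioned sample and no Ct in the blank. The arms of miR-145 thus had their earlier Ct in opposite media, each in a well earlier than every conditioned U6 well of its card. The strength of fluorescence in these wells was not examined. miR-145# shared the class of miR-143 on card A, detected in conditioned media only, and not that of miR-143 on its own card B, detected in both.

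The Ct of 13.3 in blank media was earlier than that of any U6 well of card A in conditioned media, of which the earliest stood at 19.9. The same held for the Ct of miR-145# on card B, where the earliest U6 well was 18.99. Wells as early as this were found for 82 of the 750 miRNA assays in blank media, or 10.9%, and for 83 in conditioned media. Their part in the results of miR-145 and miR-199a was not tested. With all such wells counted as not detected, 1 of the 9 assays remained detected in blank media, miR-143 on card B, and the 5 detected in conditioned media stayed. Those in conditioned media only then numbered 4, with miR-145 among them. By the same rule miR-145# would count as detected in neither medium. Counts under this rule were not made over all 750 assays, so these have no background beside them.

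**Figure D2:**
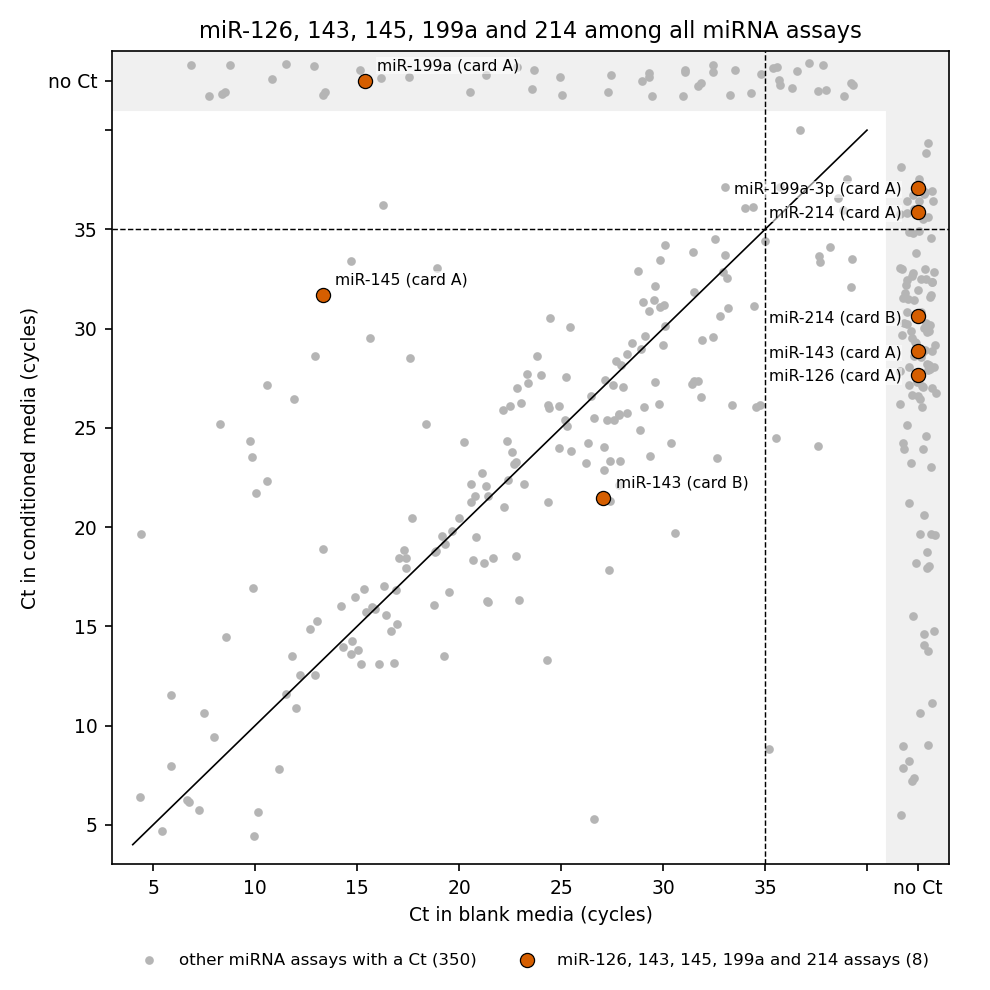
Ct in conditioned media (vertical axis, cycles) against Ct in blank media (horizontal axis, cycles) for 350 other miRNA assays with a Ct in either medium (grey) and the 8 members with one (orange), with undetermined wells spread within the grey strips, dashed lines at 35 and the line of equal Ct. Most grey points with a Ct in both media lie along the line, miR-143 on card B lies below it with a difference of -5.63 cycles, and miR-145 lies 18.4 cycles above it.

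miR-199a and miR-214, the pair transcribed from the Dnm3os locus, were also split. The assay named miR-199a, the older name of the 5p arm, gave no Ct with conditioned media and one of 15.4 with blank media, again earlier than every conditioned U6 well of its card. The assay of miR-199a-3p reached a Ct of 37.1 with conditioned media, later than the limit, and none with blank media. The assay of miR-199b was undetermined in both media, and was the only member without a Ct. No assay of the miR-199 sequences was therefore detected in conditioned media at a Ct below 35.

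mmu-miR-214, known from skeletal development and from fibrosis, reached a Ct of 30.6 with the assay of card B and of 35.9 with that of card A in conditioned media, and neither assay gave one in blank media. The assays of this name gave the same order of media, and the limit of 35 separated them. The minor arm, miR-214#, was undetermined in both media. The seed of miR-214-3p, shown above, is shared with miR-761, whose other bases differ so that 13 of 22 are identical position by position. The assay of miR-761 on card B was undetermined in both media.

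Assays that share a name were compared as a measure of the spread between assays. Whether both assays of a name target the same version of the mature sequence was not given in the sources used here, so that a difference of target and error between assays cannot be told apart. The array held 26 names with 2 assays each, and for 8 of them both assays had a Ct in conditioned media. Their Ct differed by 1.25 to 9.39 cycles, with a median of 4.67. The difference for miR-143 was 7.42 cycles, second to that of miR-200b, and for miR-214 it was 5.27 cycles, the fourth. These spreads describe different assays, on different cards for 7 of the 8 names and both on card B for miR-136#, and for wells of one assay the range of the 4 U6 wells in conditioned media was 1.42 cycles for card A and 1.82 for card B.

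**Figure D3:**
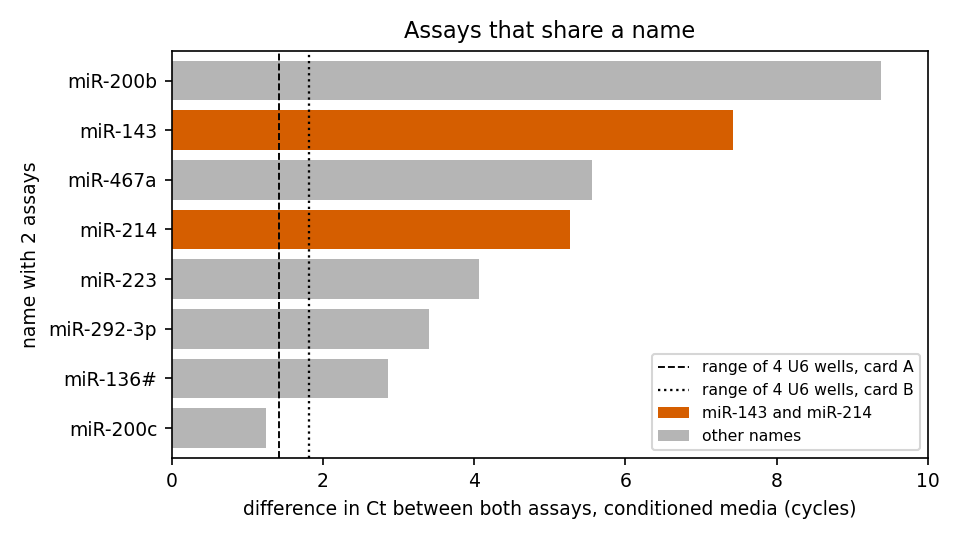
Difference in Ct in conditioned media (horizontal axis, cycles) between the assays of each of the 8 names with a Ct in both, with miR-143 and miR-214 in orange, and the range of the 4 U6 wells of each card as dashed and dotted lines. Both orange bars, at 7.42 and 5.27 cycles, exceed the ranges of the U6 wells, 1.42 and 1.82 cycles.

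In order of Ct in conditioned media, the 7 assays with a value were miR-143 on card B, miR-126, miR-143 on card A, miR-214 on card B, miR-145, miR-214 on card A and miR-199a-3p. On card A, miR-126 and miR-143 differed by 1.19 cycles, and miR-214 and miR-199a-3p by 1.22 cycles, both less than the range of U6 wells of that card, so that neither pair could be set in order. The step from miR-145 to miR-214 on card A was 4.18 cycles. This is more than the range of U6 wells, but less than the median of 4.67 cycles between assays of one name where both gave a Ct. Because each assay has its own efficiency, and since both assays of miR-143 lay 7.42 cycles apart, this order is one of Ct values and not of amounts.

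By conditioned Ct alone, the mouse assays nearest to miR-126 on its card were miR-34c, miR-16 and miR-465b-5p. Their conditioned Ct values lay within 0.37 cycles of it, among 49 assays that were undetermined in blank media. Those nearest to miR-143 on card A were miR-182, miR-26a and miR-320, within 0.30 cycles among the same 49. Nearest to miR-214 on card B were miR-1944, miR-706 and miR-1930, at 1.15 to 1.86 cycles among 33. Where a member had a Ct in both media, the distance was taken over both values, so it cannot be set against the distances above. The nearest to miR-145 were miR-685, miR-26b and miR-381, at distances of 3.13 to 5.31 cycles over both media among 98 assays. The nearest to miR-143 on card B were miR-2138, miR-1937b and miR-212, at 2.86 to 3.96 cycles among 61. The likeness rests on 1 well in each medium.

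Other miRNAs known from mesenchyme and endothelium were taken as lists. Of 14 assays in the mesenchymal list, which holds among others miR-21, miR-22, miR-31, miR-100, miR-140, miR-218 and miR-222, 6 were detected in conditioned media, 5 in blank media and 4 in both, or 42.9%, 35.7% and 28.6% beside 37.3%, 29.1% and 23.5% of all 750 assays. The 2 detected in conditioned media only were miR-140, a miRNA of cartilage, with a conditioned Ct of 30.2 and no blank Ct, and miR-125b, at 32.1 against 39.2 in the blank. Detected in neither medium were 7 of the 14, or 50%, beside 57.1% of all assays. Among these, neither miR-21, abundant in fibroblasts, nor miR-22 or miR-100 had a Ct in either medium. Others of the list were detected in both media: miR-218 at 23.3 in conditioned and 27.9 in blank media, miR-31 at 26.2 and 24.3, and miR-27b at 27.4 and 31.5. miR-222 had 18.9 as its conditioned and 13.4 as its blank Ct, later by 5.55 cycles with embryos, and both of these wells were earlier than every conditioned U6 well of card A.

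Of 7 assays in the endothelial list, 5 were detected in conditioned media, each of them also in blank media, or 71.4% in both beside 23.5% of all assays, and 0 of 7 in conditioned media only, beside 13.9%. miR-130a, which acts in angiogenesis, had 26.5 as its conditioned and 11.9 as its blank Ct, later by 14.6 cycles with embryos, and this blank well was again earlier than every conditioned U6 well of the card. Of the 21 assays of both lists, miR-130a and miR-222 were the ones detected in both droplets and more than 5 cycles apart.

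For comparison, 5 of 8 assays of blood miRNAs were detected in conditioned media, all 5 also in blank media, or 62.5% in both beside 23.5% of all assays. Of 8 epithelial assays 5 were detected in conditioned media, and of 5 assays of striated muscle miRNAs 3 were, or 62.5% and 60%. These shares stood beside 55.6% of the 9 assays described here and 37.3% of all assays. In conditioned media only, 3 of the 8 epithelial assays were detected, 37.5% beside 33.3% of the 9 assays. These 3 were not separate sequences, but both assays of miR-200c and that of miR-200b on card B. The assay of miR-200b on card A had a Ct of 36.4 in conditioned media, later than the limit. For striated muscle this was 1 of 5, or 20%, beside 13.9% of all assays. The mouse assays of miR-290 to miR-295, sequences of the embryo itself, were detected in conditioned media only in 10 of 14 and in blank media in 0 of 14.

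**Figure D4:**
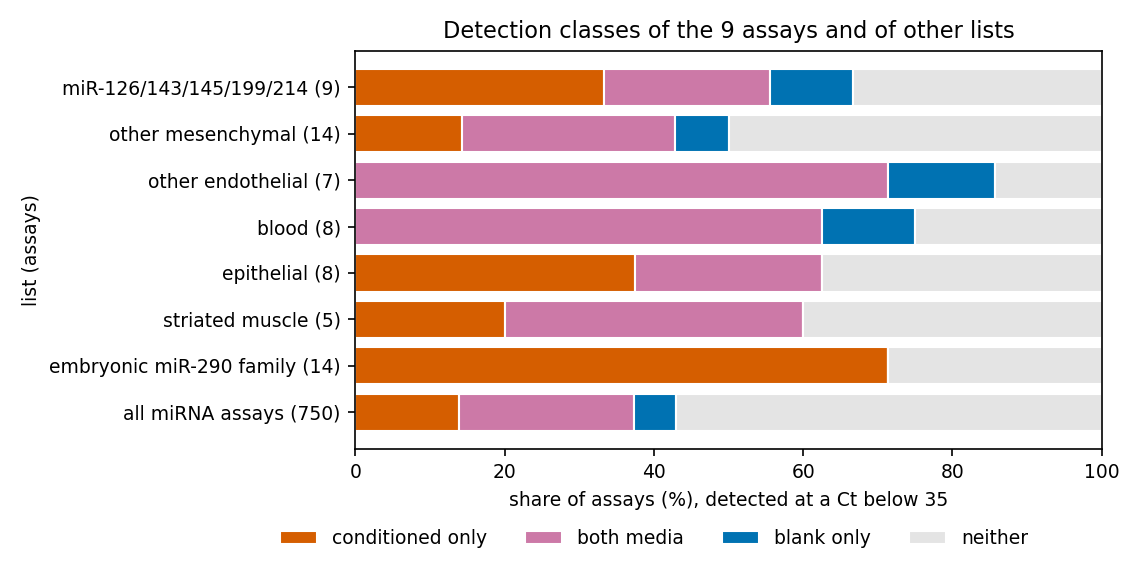
Share of assays (horizontal axis, %) in each list that had a Ct below 35 in conditioned media only, in both media, in blank media only or in neither, with the number of assays of each list in parentheses. Conditioned media only holds 33.3% of the 9 assays, 14.3% of the mesenchymal list, 0% of the endothelial and blood lists, 71.4% of the miR-290 family and 13.9% of all 750 miRNA assays.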

How the data were processed

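The deposited Ct of each well of the rodent A and B cards is a value that the authors took from the cycler's software and did not normalize, and wells without one are given as undetermined. The threshold and baseline of each assay were not given in the sources used here. Besides Ct, the study filtered on the strength of fluorescence, which was not analysed here. A deposited table of the authors' fold changes relative to U6 was not used. Control wells (18 of 768) were left out of counts. Detection was a Ct below 35, and differences were taken as conditioned minus blank Ct, with a limit of 5 cycles. Pre-amplification for 12 cycles without dilution shifts every Ct to earlier cycles and adds an error of its own that single wells do not show. With 1 droplet per medium, precision is limited by that number.

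The members and lists were chosen with earlier results of these data known. Sequences named are the members, the other arms of their hairpins, assays sharing a seed, the 3 nearest assays of each detected member, and listed assays detected in conditioned media only or more than 5 cycles apart. From the mesenchymal list, miR-21, miR-22, miR-100, miR-218, miR-31 and miR-27b were chosen after their values were seen. The lists count mouse assays without #. Alternatives were Ct limits of 32 and 38, any determined Ct, unique names, early wells left out, each card alone, and differences relative to U6 or to the card median; leaving out 1 outlying U6 well was added after seeing the data. The assignment of classes was tested on simulated data for 750 assays, and all 4 classes were recovered. Because the simulated Ct were drawn on either side of the limit, this checks the code and not the calls themselves. Python 3.11.15, pandas 2.3.3, numpy 2.4.6 and matplotlib 3.10.9 were used.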

Additional observations from a re-analysis of the deposited data

How the results depend on the processing

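Of 35 alternative counts of the 9 assays, 23 stayed within 1.5 times the value given. The 35 include counts on each card alone, with fewer assays, and the values given are as low as 1. The tally is therefore not a measure of robustness. At a Ct limit of 38, and with any determined Ct, those in conditioned media only numbered 5, because miR-214 on card A and miR-199a-3p then counted. Of all 750 assays, 117 and 114 were then in this class. With wells earlier than U6 left out, 1 assay was detected in blank media, 1 in both, 4 in conditioned media only and 0 in blank media only. Card A alone (6 assays) gave 3 in conditioned media and 1 in both, and card B alone (3 assays) gave 2 in conditioned media, 1 in blank media, 1 in both, 1 in conditioned media only and 0 in blank media only, since fewer assays were counted. For each card alone no count was made over all miRNA assays, so these counts have no background beside them. In the lists of 21 other assays, those in conditioned media only numbered 1 at a limit of 32, and those in blank media only 4 at a limit of 38. The same classes then held 90 and 49 of all 750 assays. The counts over all 750 assays stayed within 1.5 times under each Ct limit. The difference of miR-143 on card B turned to 1.45 cycles relative to the mean of U6 and to 1.34 relative to its median, while that of miR-145 became 22.5 and 23.5 cycles. That of miR-126# (-3.05) became 1.03 and 2.04. Without the outlying U6 well at 20.2 in blank media, chosen after seeing the data, they were 24.1 for miR-145 and 2.62 for miR-126#. No paired analysis was possible because each medium had 1 droplet and no test was run. Leaving out a replicate was likewise not possible.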
